A study of Mus musculus with 77 samples.

Results

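Livers of 8 male C57BL/6JRj mice that had been returned to chow for 24 weeks (group Chow_reversal_24_w) were compared with livers of 7 male mice of the same strain that had been kept on chow and dosed with vehicle (group Chow_Vehicle_24_w), to find which genes were still changed after the diet was replaced. These 15 libraries were all members of the 2 treatment labels, of 77 libraries in the series, and each was 1 mouse. The reversal mice had eaten the Gubra Amylin NASH diet (40% of energy as fat, 22% fructose, 10% sucrose and 2% cholesterol) for 34 weeks from 5 to 6 weeks of age, had a liver biopsy 4 weeks before treatment, entered the study on histology (steatosis score 3, or fibrosis score above 1 with steatosis score above 2) and were randomized by collagen staining. They then received chow and vehicle. Other parts of the paper give a lower age at treatment start than this diet period implies, and word the histological rule differently. The chow mice had vehicle by the same daily injection, were of matched age and were not randomized. No source used here says whether they were biopsied or scored, so the biopsy, the selection and the past diet cannot be told apart in this comparison. The chow control was taken at 24 weeks, so livers after 8 and 16 weeks of reversal (7 and 8 mice) are set beside a control of another age. Vehicle-dosed mice that stayed on the diet for the same 24 weeks (Vehicle_24_w, 7 mice) give the level without reversal.

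In metabolic dysfunction-associated steatohepatitis, hepatocytes load fat into lipid droplets, recruited monocytes become lipid-associated macrophages that take up lipid and dead cells, and stellate cells lay down collagen. Removing the dietary cause lets fat leave the hepatocyte, while matrix must be degraded by proteases and the recruited macrophages must be lost or change state. Which of these programmes return to the level of a liver that never saw the diet is the question addressed here.

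The 15 libraries held 14831280 to 21771363 assigned counts in the chow group and 13181335 to 19739138 in the reversal group. Xist had at most 2 counts and Ddx3y at least 466 in each of them, which fits the label male. Hepatocyte markers were present in every library: the summed level of the 14 tested markers was 126000 to 162000 CPM (counts scaled to library size, adjusted by TMM, a trimmed mean of log ratios) in chow and 107000 to 135000 in reversal livers. Some libraries stood apart from their own group. Chow library 5 had 1417 genes more than 2-fold from the median of the other chow libraries, against 585 to 773 for the others. Reversal libraries 7 and 8 had 2649 and 2327 such genes and reversal library 2 had 1312, against 659 to 985 for the other five. Because chow library 5 was high for several of the macrophage and matrix genes described here, and reversal libraries 7 and 8 were high for acute phase, metallothionein and injury genes, results are also given without these 3 libraries. Their removal was decided after the data were seen.

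**Figure D1:**
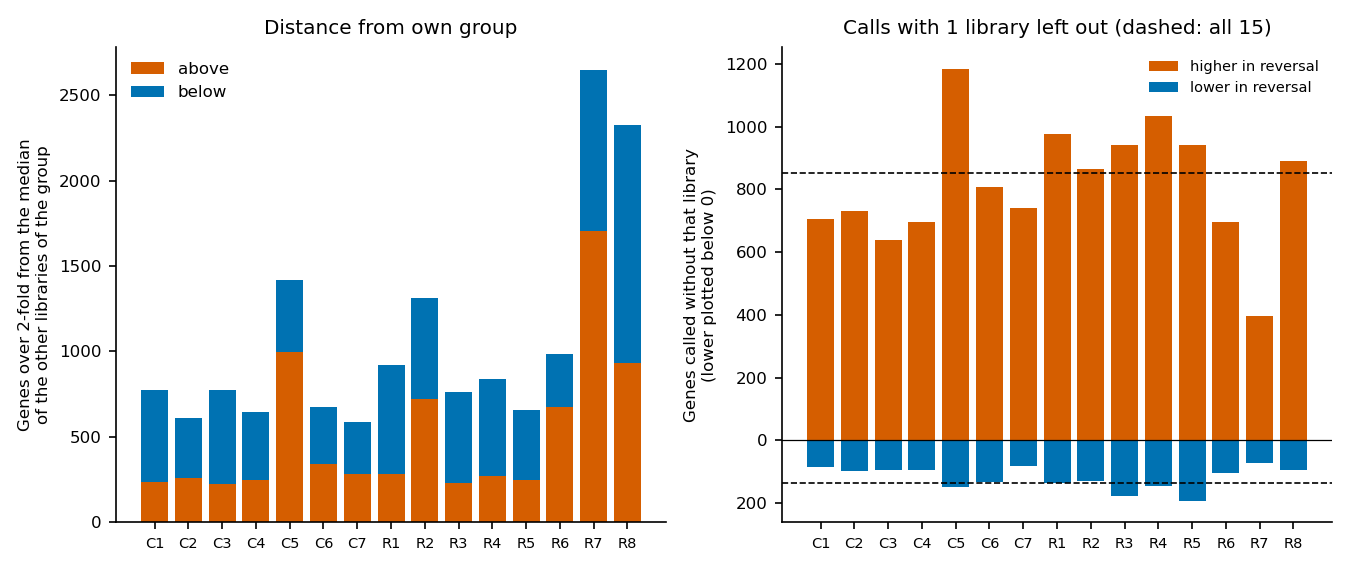
Left, number of genes in each chow (C) and chow reversal (R) library that lay more than 2-fold above or below the median of the other libraries of its group; right, genes called higher (positive) and lower (negative) in reversal when that library was left out, with dashed lines at the counts with all 15. C5, R7 and R8 have the tallest bars on the left, and the count of genes called higher runs from 396 without R7 to 1185 without C5.

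Of 14904 genes tested, 852 (5.72%) were higher and 136 (0.913%) were lower in reversal than in chow livers (edgeR quasi-likelihood test over all 10 groups, Benjamini-Hochberg adjusted p under 0.05). The rises were also larger than the falls, with a median log2 fold change of 1.15 over the genes called higher and -0.5 over those called lower, and 527 rises but 25 falls passed 1 on the log2 scale. The median over all genes tested was 0.03. The levels of all 8 reversal livers lay above all 7 chow levels for 61 genes (0.409%) and below them for 15 genes (0.101%); without chow library 5 the first number was 175 (1.17%). Without the 3 libraries, 695 genes were higher and 46 lower, of which 575 and 30 were among those called with all libraries. The size of the list depended on the libraries in the fit. Of the genes called, 322 higher and 40 lower were called in all 15 fits that left out 1 library. A fit to the 15 libraries alone called 115 higher and 14 lower. That fit filtered genes on these libraries only and tested 12887, so both spread and filter differed from the main fit. It did not test Timp1, Mmp13, Cd28 and Klrd1, among others, and its list counts below leave such genes out. With library totals alone in place of TMM, the median of all genes moved to 0.146 and 1331 genes were higher and 56 lower, so directions below are relative to the TMM scale.

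**Figure D2:**
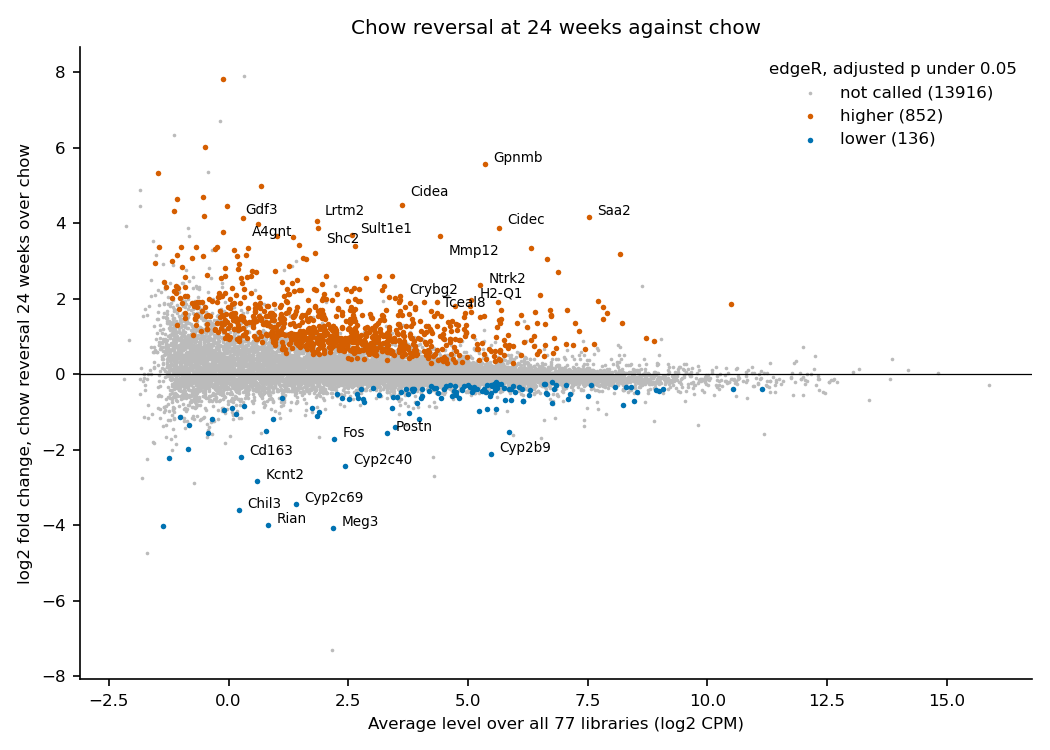
Each point is 1 of the 14904 genes tested, with its average level over all 77 libraries (log2 CPM) against its log2 fold change in chow reversal at 24 weeks over chow; colored points passed the edgeR test. The 852 genes called higher spread up to and beyond 5 on the log2 scale, whereas most of the 136 genes called lower lie close to the line at 0.

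Genes of lipid-associated macrophages were the list, of the 39 examined, with the highest share of members called higher. Of 17 members tested, 15 were higher and none lower, with a median log2 fold change of 1.60, against 3.41 in the vehicle mice that stayed on the diet; 14 were called without the 3 libraries, 9 without reversal library 7 and 5 in the fit to the 15 libraries alone. Gpnmb, a lysosomal glycoprotein that marks macrophages loaded with lipid (chr6:49036546-49070929, + strand, GRCm38), was at 0.151, 0.298 and 0.843 CPM (lowest, median and highest) in chow and at 4.64, 7.39 and 71.5 CPM in reversal livers. The groups did not overlap, and reversal library 2 had the highest level, followed by libraries 6 and 7. Its log2 fold change was 5.57 ± 0.63 (SE; adjusted p = 2.66e-09, edgeR), it was 5.99 without the 3 libraries, and the gene was called in all 15 fits that left out 1 library. The median in the vehicle mice was 92.3 CPM, and reversal was below them by a log2 difference of -2.13 (adjusted p = 3.8e-05, edgeR). Bulk liver cannot tell apart a change in the number of macrophages from a change in RNA per cell, for this and all later gene groups.

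Mmp12, a macrophage metalloelastase, was at 0.149, 0.362 and 0.913 CPM in chow and 1.79, 3.03 and 21.4 CPM in reversal livers, again with no overlap (3.65 ± 0.56; adjusted p = 4.75e-06, edgeR). Pla2g7, which inactivates platelet-activating factor, also separated the groups, at 1.81 to 3.78 CPM in chow and 4.12 to 14 CPM in reversal (1.35 ± 0.19; adjusted p = 1.49e-06). Itgax, the integrin chain CD11c, had medians of 0.488 and 2.29 CPM, and 7 of 8 reversal livers were above the highest chow liver (2.61 ± 0.39; adjusted p = 2.58e-06). Gdf3, a transforming growth factor-beta family ligand expressed by macrophages of fat tissue, was listed at 0 to 0.0746 CPM in chow and at 0.15 to 1.06 CPM in reversal (3.97 ± 0.56; adjusted p = 1.16e-07). These levels are low, so the separation rests on few reads in each library. Trem2, the lipid receptor after which these macrophages are often named, overlapped: chow was at 0.224, 0.828 and 7.45 CPM, its maximum being chow library 5, and reversal at 1.2, 2.3 and 17.4 CPM (1.60 ± 0.49; adjusted p = 0.0305). Without the 3 libraries its log2 fold change was 2.72 (adjusted p = 0.000585), and with reversal library 2 left out it was not called (adjusted p = 0.203). Spp1, osteopontin, which is made by these macrophages and by bile duct cells, rose from a median of 38.6 to 63.4 CPM with a maximum of 486 CPM in reversal library 7, and did not pass without the 3 libraries (1.07; adjusted p = 0.108).

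Most markers of resident Kupffer cells were not called, and those called went in both directions. Cd163, the hemoglobin scavenger receptor of resident macrophages, was at 3.44, 6.12 and 11 CPM in chow and at 0.146, 1.21 and 4.44 CPM in reversal livers. Of the 8 reversal livers, 7 were below the lowest chow liver (-2.19 ± 0.54; adjusted p = 0.00523, edgeR), and the fall was -2.27 without the 3 libraries. The median was 0.188 CPM in vehicle mice, 0.185 CPM after 8 weeks of reversal and 0.757 CPM after 16 weeks. The complement gene C1qa was higher, with medians of 19.5 and 33.1 CPM (0.91 ± 0.25; adjusted p = 0.0118), as were C1qb, C1qc and Il18bp. In all, 4 of 19 Kupffer cell genes rose and 1 fell, with a median of 0.33. Without the 3 libraries 5 rose, without chow library 5 7, and without reversal library 7 alone none. The fit to the 15 libraries alone called none higher and 1 lower.

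Genes of antigen presentation on MHC class II molecules were raised in most reversal livers. Of 11 tested, 8 were higher and none lower (median 1.33), also without the 3 libraries and without reversal library 7; the fit to the 15 libraries alone called 2. The promoters of the alpha chain gene H2-Aa and the beta chain gene H2-Eb1 are shown because both chains rose and both hold the Y box, the CCAAT element bound by NF-Y in the conserved class II promoter module at which the coactivator Ciita is recruited. The sequences are from RefSeq on GRCm38.p6, from 250 bases before to 50 bases after the gene start, 5′ to 3′ on the strand of the gene, with the Y box CTGATTGG in capitals. H2-Aa lies at chr17:34287774-34288073 (- strand) and H2-Eb1 at chr17:34305617-34305916 (+ strand).
H2-Aa: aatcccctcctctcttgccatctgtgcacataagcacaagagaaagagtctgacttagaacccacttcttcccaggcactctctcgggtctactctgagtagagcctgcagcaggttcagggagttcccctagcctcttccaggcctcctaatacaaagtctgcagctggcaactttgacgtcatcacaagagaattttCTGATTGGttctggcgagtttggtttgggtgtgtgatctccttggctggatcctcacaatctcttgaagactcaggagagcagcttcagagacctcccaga
H2-Eb1: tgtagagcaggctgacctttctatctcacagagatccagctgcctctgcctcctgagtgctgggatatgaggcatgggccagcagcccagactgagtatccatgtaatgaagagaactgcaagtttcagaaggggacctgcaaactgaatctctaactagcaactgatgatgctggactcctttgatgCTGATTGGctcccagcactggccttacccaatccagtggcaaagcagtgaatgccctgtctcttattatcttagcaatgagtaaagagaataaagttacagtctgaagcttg
The 8-base Y box was searched on both strands. It starts 51 bases before the gene start in H2-Aa and 62 bases before it in H2-Eb1. Of the listed genes, 9 had a promoter in the table and 4 of these held the motif in any of their promoters. These were 2 of the 5 called higher and 2 of the 4 others, which include H2-Eb2, a gene not tested. Over all 32851 promoters, counted by promoter and not by gene, 1346 (4.1%) held it. Only the exact 8 bases were searched, so a gene without a match can still hold a variant of the Y box.

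H2-Aa was at 10.1, 14.3 and 43.3 CPM in chow and at 25.4, 39.6 and 98.0 CPM in reversal livers. The chow maximum was library 5, and without it the chow livers ended at 15.6 CPM and all 8 reversal livers lay above them. The log2 fold change was 1.56 ± 0.25 (adjusted p = 2.16e-05, edgeR) and 1.92 without the 3 libraries. H2-Ab1 (1.53 ± 0.26; adjusted p = 3.19e-05) and H2-Eb1 (1.69 ± 0.28; adjusted p = 2.87e-05) moved with it, as did the invariant chain Cd74, the coactivator Ciita and the protease Ctss. The summed level of the class II genes was 89.3 to 117 CPM in 6 chow livers, 328 CPM in chow library 5 and 166 to 722 CPM in reversal livers. H2-Aa had a median of 70.8 CPM after 8 weeks of reversal, 60.9 CPM after 16 weeks and 39.6 CPM after 24 weeks, and the difference between 24 and 8 weeks did not pass the test (-0.53; adjusted p = 0.542).

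**Figure D3:**
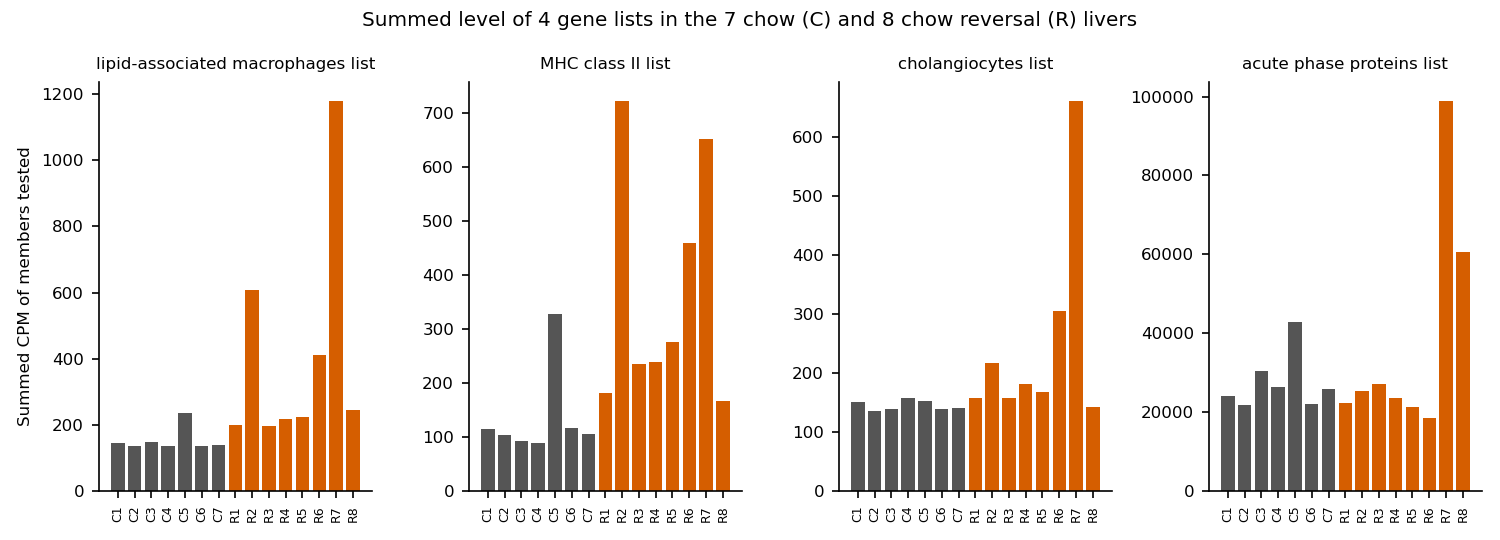
Summed CPM of the tested members of 4 lists in each of the 7 chow (C) and 8 reversal (R) livers. Macrophage and class II bars are higher in R than in C except for C5, R7 is highest for the macrophage, cholangiocyte and acute phase lists, and the acute phase bars of R1 to R6 (18400 to 27000) overlap those of the chow livers (21800 to 42700).

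Chemokines and their receptors were partly raised. Of 32 genes tested, 12 were higher and none lower (median 0.92), 9 of them without the 3 libraries. Without reversal library 7 alone 7 were higher and 1 lower, and the fit to the 15 libraries alone called 4 higher. Cx3cr1, the fractalkine receptor of monocytes and monocyte-derived macrophages, was at 0.303, 0.628 and 1.33 CPM in chow and 1.02, 3.71 and 9.11 CPM in reversal livers, with 7 of 8 reversal livers above the highest chow liver (2.56 ± 0.46; adjusted p = 0.000128, edgeR). Cxcr4, the receptor of the retention signal Cxcl12, had medians of 0.209 and 1.21 CPM (2.13 ± 0.38; adjusted p = 7.98e-05). Among Toll-like receptor and NF-kB genes 10 of 32 were higher, including Cd14 and Icam1. Without the 3 libraries 11 were called, without chow library 5 17, without reversal library 7 2, and in the fit to the 15 libraries alone none. Of 29 T and NK cell genes 5 were higher (median 0.71), Cd28, the costimulatory receptor, among them. Without the 3 libraries 2 were called, without reversal library 7 1, and in the fit to the 15 libraries alone none. None of 24 B and plasma cell genes was called by edgeR, 3 had an unadjusted p under 0.05 and DESeq2 called 1. Of 37 interferon-stimulated genes 3 rose (Ifi27l2a, Ifi44 and Tap1), which is 8.11% against 5.72% of all genes, with a median of 0.27. Without chow library 5 this count was 11. The neutrophil list had 5 members at testable levels, of which none was called, 1 had an unadjusted p under 0.05 and none was called by DESeq2; their summed level was 2.23 to 6.9 CPM in chow and 2.82 to 14.8 CPM in reversal livers.

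Matrix genes made up the other large group that stayed raised. Of 20 collagen genes 7 were higher and none lower (median 0.69, against 1.85 in vehicle mice), with 8 called without the 3 libraries and 11 without chow library 5. Of 42 matrix glycoprotein, proteoglycan and remodelling genes 25 were higher and 1, Postn, was lower (median 0.83). These numbers were 22 and none without the 3 libraries and 16 and 1 without reversal library 7. The fit to the 15 libraries alone called 4 collagen genes and 9 genes of the second list higher. The summed collagen level had medians of 1560 CPM in chow, 1460 CPM in reversal and 1530 CPM in vehicle livers. Other members set most of this sum, because the chow medians of Col1a1, Col1a2 and Col6a3 were 4.04, 6.61 and 5.26 CPM. The sum therefore does not show changes of the collagen genes at low level. Col1a1, the alpha 1 chain of type I collagen (chr11:94936224-94953042, + strand, GRCm38), was at 3.58, 4.04 and 12.1 CPM in chow and at 8.16, 12.7 and 34.9 CPM in reversal livers. The chow maximum was again library 5, and the other 6 chow livers were at or under 4.77 CPM, below every reversal liver. The log2 fold change was 1.92 ± 0.36 (adjusted p = 0.000183, edgeR), and the median in vehicle mice was 99.7 CPM. Col1a2 (1.44 ± 0.25; adjusted p = 7.14e-05) and Col6a3 (1.51 ± 0.31; adjusted p = 0.000717) rose as well.

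Among the genes that regulate matrix breakdown, Timp1, an inhibitor of metalloproteases, was listed at 0 to 0.207 CPM in chow and at 0.221 to 2.89 CPM in reversal livers (3.63 ± 0.65; adjusted p = 5.25e-05, edgeR). All 8 reversal livers were above the highest chow liver, at a low level. Timp2, also an inhibitor, had medians of 9.47 and 18.3 CPM (0.94 ± 0.23; adjusted p = 0.00428). Of the proteases, Mmp2, a gelatinase of stellate cells, rose from a median of 1.43 to 3.86 CPM (2.04 ± 0.38; adjusted p = 0.000155), and Mmp13, the interstitial collagenase of rodents, from 0.0756 to 0.543 CPM (1.80 ± 0.58; adjusted p = 0.0346). Mmp13 was called in 6 of the 15 fits that left out 1 library. Levels of inhibitors and proteases were not compared with each other, because CPM is not scaled to gene length.

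Of 25 stellate cell and myofibroblast genes 11 were higher and none lower (median 0.64), 9 of them without the 3 libraries. The fit to the 15 libraries alone called 3 higher. Pdgfrb and Pdgfra, the receptors through which stellate cells and fibroblasts are driven to divide, were above every chow liver in all 8 reversal livers. Pdgfrb was at 5.19 to 9.14 CPM in chow and 11.1 to 26.2 CPM in reversal (1.19 ± 0.20; adjusted p = 3.85e-05, edgeR), and Pdgfra at 2.03 to 3.14 and 4.57 to 15 CPM (1.44 ± 0.27; adjusted p = 0.000155). Vim, the intermediate filament vimentin, was also higher (1.04 ± 0.20; adjusted p = 0.0003). Acta2, which encodes alpha smooth muscle actin of activated myofibroblasts, was at 1.86, 3.58 and 5.48 CPM in chow and 1.22, 3.99 and 10.6 CPM in reversal livers, and the groups overlapped (0.39 ± 0.27; adjusted p = 0.498). Wt1, a transcription factor of mesothelium and of some stellate cells, rose from a median of 0.159 to 1.38 CPM, the vehicle median being 1.73 CPM (2.73 ± 0.50; adjusted p = 0.000109); Wt1 was the 1 member called of 4 mesothelial genes tested.

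**Figure D4:**
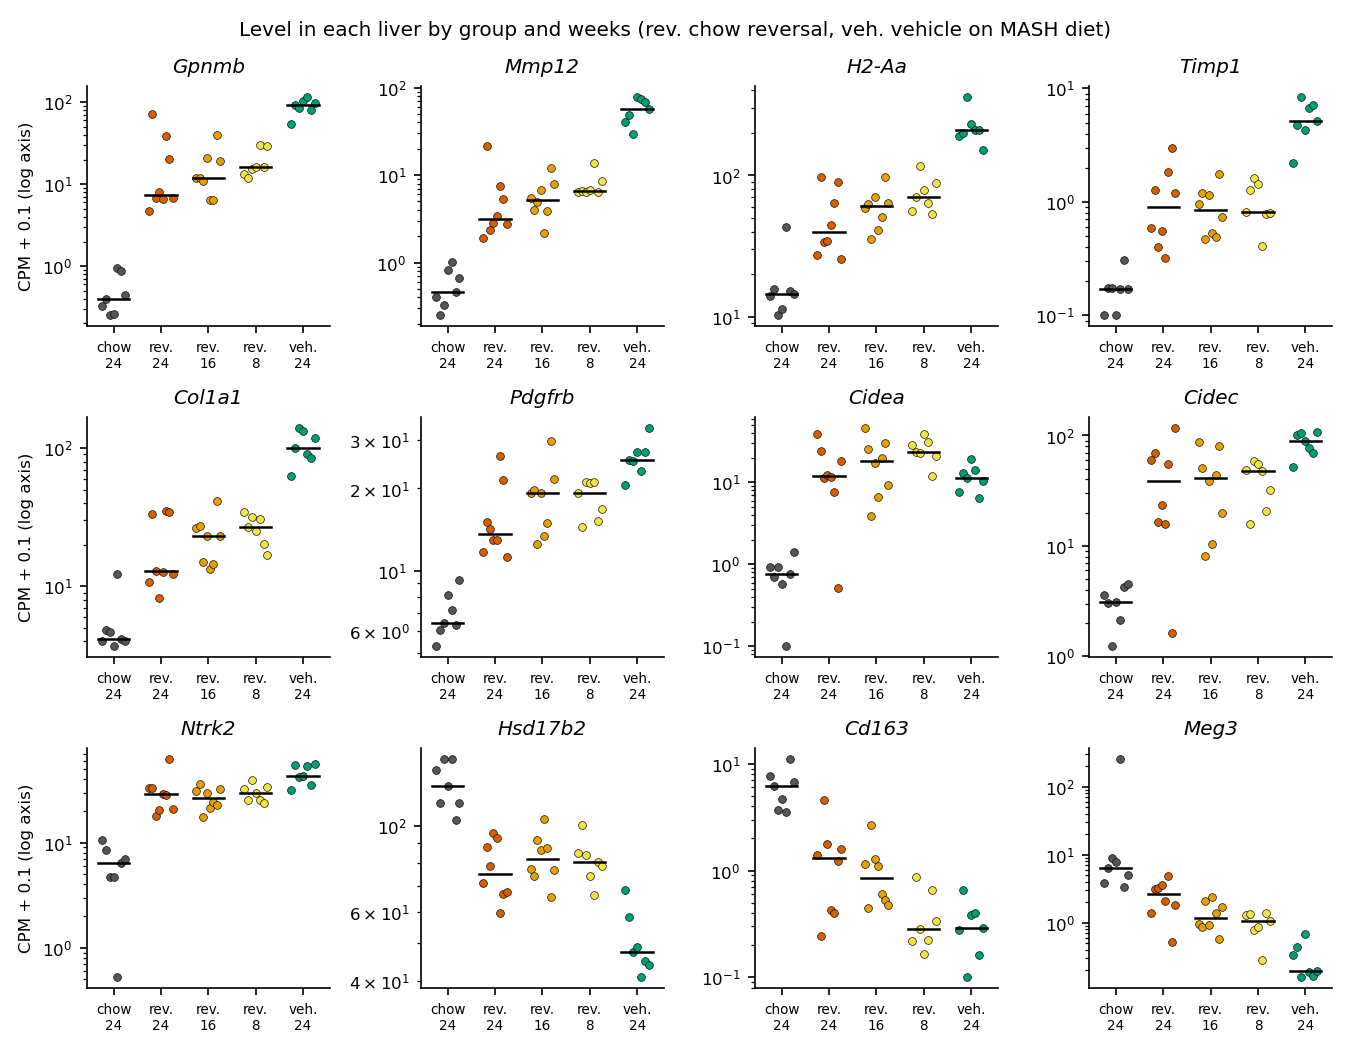
CPM plus 0.1 (log axis) of 12 genes in each liver of 5 groups: chow at 24 weeks, chow reversal at 24, 16 and 8 weeks, and vehicle on the diet at 24 weeks; each point is 1 mouse and each bar the group median. For Gpnmb, Mmp12, Timp1, Pdgfrb and Ntrk2 all reversal livers at 24 weeks sit above all chow livers, for Hsd17b2 all sit below, and the single low reversal point of Cidea and Cidec is library 7.

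Lipid droplet genes differed among themselves. Cidea and Cidec, which fuse lipid droplets into larger ones, were among the largest rises. Cidea was at 0, 0.673 and 1.32 CPM in chow and at 0.412, 11.9 and 38.6 CPM in reversal livers; 7 of 8 reversal livers were above the highest chow liver and reversal library 7 was not. The log2 fold change was 4.49 ± 0.57 (adjusted p = 5.06e-08, edgeR). Cidea did not differ detectably between reversal and the vehicle mice, whose median was 11.2 CPM (0.40; adjusted p = 0.494). Cidec (chr6:113424634-113435760, - strand, GRCm38) was at 1.13, 3.02 and 4.46 CPM in chow and 1.53, 39 and 117 CPM in reversal livers, again with library 7 as the low one (3.87 ± 0.47; adjusted p = 1.87e-08). The vehicle median was 89.6 CPM. Of the 25 genes of lipid droplets and fatty acid uptake 6 were higher in all, and the list's median was 0.12; the fatty acid translocase Cd36 rose by 0.76 and the droplet coat gene Plin4 by 1.47 on the log2 scale, and both were called without the 3 libraries. Fabp4, a fatty acid-binding protein of macrophages and fat cells, was called with all libraries (1.62 ± 0.38; adjusted p = 0.00325), but its maximum of 105 CPM was reversal library 8 and it was not called without the 3 libraries (0.28; adjusted p = 0.851).

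Most genes of lipid synthesis and fatty acid oxidation were not called against chow. None of 27 genes of cholesterol synthesis and uptake was called by edgeR, at an unadjusted p under 0.05 or by DESeq2; their median log2 fold change was -0.11, whereas it was -2.17 in the vehicle mice against the same chow livers. Among 28 genes of fatty acid and triglyceride synthesis 1 was higher, Scd2. The median of this list was 0.07, and it was also near chow in the vehicle mice, at -0.02. Its summed level had medians of 17800 CPM in chow, 20600 CPM in reversal and 30500 CPM in vehicle livers. Among 35 genes of fatty acid oxidation 1 was higher, the mitochondrial carrier Ucp2. Lpl, lipoprotein lipase, which is low in adult hepatocytes and high in macrophages, rose from a median of 8.88 to 22.7 CPM with 210 CPM in reversal library 7 (2.10 ± 0.38; adjusted p = 0.000155), and remained called without the 3 libraries (1.46; adjusted p = 0.00179). Apoa4, an apolipoprotein, rose by 1.85, but by 0.87 without the 3 libraries (adjusted p = 0.0982).

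Several genes outside these groups separated the groups with the strongest tests. Ntrk2, the receptor TrkB for brain-derived neurotrophic factor (chr13:58806569-59133970, + strand, GRCm38), had the smallest p of all named genes: chow was at 0.422, 6.31 and 10.5 CPM and reversal at 17.9, 28.7 and 62.6 CPM (2.36 ± 0.25; adjusted p = 2.38e-10, edgeR). Its lowest chow value was library 5. The median after 8 weeks of reversal, 29.7 CPM, and after 16 weeks, 26.8 CPM, was about that at 24 weeks, and the vehicle median was 42.6 CPM. Crybg2, a crystallin beta-gamma domain protein, was at 0.602 to 5.57 CPM in chow and 6.71 to 19.5 CPM in reversal (2.07 ± 0.25; adjusted p = 1.54e-08). Tceal8, of the X-linked transcription elongation factor-like family, was at 3.18 to 5.76 and 8.64 to 19.8 CPM (1.55 ± 0.20; adjusted p = 5.06e-08). The class I gene H2-Q1 also did not overlap (1.97 ± 0.25; adjusted p = 5.63e-08), but it has near-identical class I relatives between which reads can be split, so its value is uncertain. Cdkn2c, an inhibitor of cyclin-dependent kinases, had medians of 1.59 and 4.59 CPM (1.40 ± 0.19; adjusted p = 6.37e-07).

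Hk2, the hexokinase that is low in normal hepatocytes, was higher than every chow liver in all 8 reversal livers, with medians of 0.488 and 2.07 CPM (2.25 ± 0.41; adjusted p = 0.000133, edgeR). Cebpd, a transcription factor induced in inflammation, was also above all chow livers (1.23 ± 0.26; adjusted p = 0.000862). Sult1e1, which inactivates estrogens, had medians of 0.209 and 2.46 CPM (3.69 ± 0.82; adjusted p = 0.00167). Esm1, an endothelial proteoglycan, rose from 0.637 to 3.46 CPM (2.12 ± 0.44; adjusted p = 0.000817), one of 2 genes called of 17 of capillary and large vessel endothelium. Slc7a11, the cystine transporter, had no count in the 7 chow libraries and 22 counts in the 8 reversal libraries, which is at least 6.19-fold above a floor of 3 counts over the chow group. Of 31 lysosomal genes 3 were higher and none lower (median -0.01).

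The falls were smaller. Hsd17b2, which oxidizes estradiol and testosterone to less active steroids, was at 103, 126 and 148 CPM in chow and at 59.5, 75 and 95.8 CPM in reversal livers, with no overlap (-0.71 ± 0.12; adjusted p = 5.55e-05, edgeR). Paics, an enzyme of purine synthesis, was at 274 to 298 CPM in chow and 131 to 247 CPM in reversal, also with no overlap (-0.57 ± 0.11; adjusted p = 0.000434). Both falls were called without the 3 libraries, at -0.60 and -0.43. Thtpa, a thiamine triphosphatase (-0.44 ± 0.09; adjusted p = 0.000764), Atp6v1h, a proton pump subunit (-0.38 ± 0.07; adjusted p = 0.000365), and Sri, the calcium-binding protein sorcin (-0.34 ± 0.08; adjusted p = 0.0021) also fell.

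Susd4, a complement regulator on the list of sex-biased genes, was at 34.9 to 50.0 CPM in chow, at 6.77 to 28.6 CPM in reversal and at 0.848 to 4.25 CPM in vehicle mice. No reversal liver overlapped chow (-1.40 ± 0.37; adjusted p = 0.0101), and without the 3 libraries the log2 fold change was -1.27 with an adjusted p of 0.0613. Among the 49 sex-biased and growth hormone-dependent genes 2 were higher and 3 lower (median -0.49), and none was called without the 3 libraries (median -0.22). Hsd3b5, a male-biased steroid dehydrogenase of the same list, was not called (-2.69 ± 0.94; adjusted p = 0.0705), with chow at 41.4, 162 and 194 CPM and reversal at 0.0589, 14.8 and 67.6 CPM; 7 of 8 reversal livers were below the lowest chow liver.

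Bile acid genes were lower in part. Cyp39a1, a 24-hydroxycholesterol hydroxylase, was at 27.9 to 40.0 CPM in chow and 5.89 to 26.8 CPM in reversal, with no overlap (-0.62 ± 0.15; adjusted p = 0.00439, edgeR), and was called without the 3 libraries (-0.43; adjusted p = 0.0366). Cyp7b1, an oxysterol hydroxylase, Hsd3b7 and Cyp2c70 were the other members that fell of 37 tested, none higher (median -0.16). These did not pass without the 3 libraries, where Cyp7b1 was at -0.73 (adjusted p = 0.0715; -0.76 with all), Hsd3b7 at -0.30 (-0.42 with all) and Cyp2c70 at -0.46 (-0.70 with all). Of 42 cytochrome P450 genes of families 1 to 3, 1 was higher and 5 lower (median -0.29). Cyp2u1, a fatty acid hydroxylase (-1.18), was the 1 of them called without the 3 libraries. Cela1, a serine protease of the exocrine pancreas list that is also transcribed in liver, was at 11.3, 32.4 and 47.2 CPM in chow and 8.74, 16.2 and 21.2 CPM in reversal (-1.04 ± 0.23; adjusted p = 0.00178); Cela2a was at 9.37 CPM in chow library 6 and 0.279 to 0.955 CPM in the other chow livers.

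Some of the largest falls were smaller or absent without chow library 5. Meg3 and Rian, long noncoding RNAs of the imprinted Dlk1 to Dio3 region, were at 255 and 96.6 CPM in chow library 5, where the chow medians were 6.19 and 2.39 CPM. Meg3 in reversal livers was at 0.412, 2.49 and 4.67 CPM, and 6 of 8 were below the lowest chow liver. Its log2 fold change of -4.07 ± 0.55 (adjusted p = 3.19e-07, edgeR) was -1.20 without chow library 5 (adjusted p = 0.0186) and -0.95 without the 3 libraries (adjusted p = 0.136). For Rian, -3.99 became -0.99 without chow library 5 (adjusted p = 0.131). The falls of Chil3, Kcnt2, Cyp2b9, Cyp2c40 and Cyp2c69 had the opposite sign without chow library 5. Chil3 was then called higher (3.02, adjusted p = 0.0191, edgeR), with its highest reversal level, 2.41 CPM, in library 7. It was not called without the 3 libraries (1.35, adjusted p = 0.652). Postn, at 54 CPM in chow library 5 and 4.66 to 5.45 CPM in the other chow livers, fell by 0.52 without the 3 libraries (adjusted p = 0.211). The fall of the immediate-early gene Fos was not called without chow library 7 (adjusted p = 0.693).

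Several acute phase and injury genes had their highest level in reversal library 7 or 8. Saa2, serum amyloid A, was at 2800 CPM in library 7, where the reversal median was 44.2 CPM and the chow median 8.85 CPM (4.17 ± 0.78; adjusted p = 0.000176, edgeR). It was called in all 15 fits that left out 1 library, at 1.98 without library 7, and was 2.54 without the 3 libraries (adjusted p = 0.00172). Of 30 acute phase genes 10 were higher (median 0.60), 7 without the 3 libraries (median 0.10) and 5 without library 7. Mt1, a metallothionein, reached 2570 CPM in library 8 and Srxn1, a sulfiredoxin, 562 CPM; neither was called without the 3 libraries, with log2 fold changes of 0.82 and 0.11. Cxcl14, a chemokine, was at 132 CPM in library 7 and had a median of 2.33 CPM against 2.01 CPM in chow. Of 34 genes of injured, senescent and oncofetal hepatocytes 13 were higher (median 0.90) and 7 without the 3 libraries (median 0.35). Of 36 cell division genes 6 were higher (median 0.73), with 5 called without the 3 libraries, 10 without chow library 5 and 1 without library 7. For cholangiocyte markers, 4 of 16 were higher and none without the 3 libraries; Epcam, an adhesion molecule of bile duct cells, was nonetheless above every chow liver in all 8 reversal livers (1.75 ± 0.47; adjusted p = 0.0104; without the 3 libraries 1.5, adjusted p = 0.0824). The summed cholangiocyte level was 136 to 157 CPM in chow and 142 to 662 CPM in reversal livers, with the maximum in library 7. The part of the cholangiocyte level in the other results was not tested.

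Few genes differed between 24 and 8 weeks of reversal. Over all genes tested 6 were higher and 1 lower at 24 weeks (edgeR, adjusted p under 0.05). Cxcl14 and Ugt2b37 were among those higher, with their maxima in reversal libraries 7 and 8, as was Steap4 with its maximum in library 8. Gpnmb had medians of 16.2, 11.9 and 7.39 CPM at 8, 16 and 24 weeks, Col1a1 of 26.7, 23 and 12.7 CPM, and Cidec of 47.2, 41.3 and 39 CPM, and the difference between 24 and 8 weeks did not pass for any of them. The 3 reversal groups were compared with the same chow livers, so their values against chow are not independent.

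**Figure D5:**
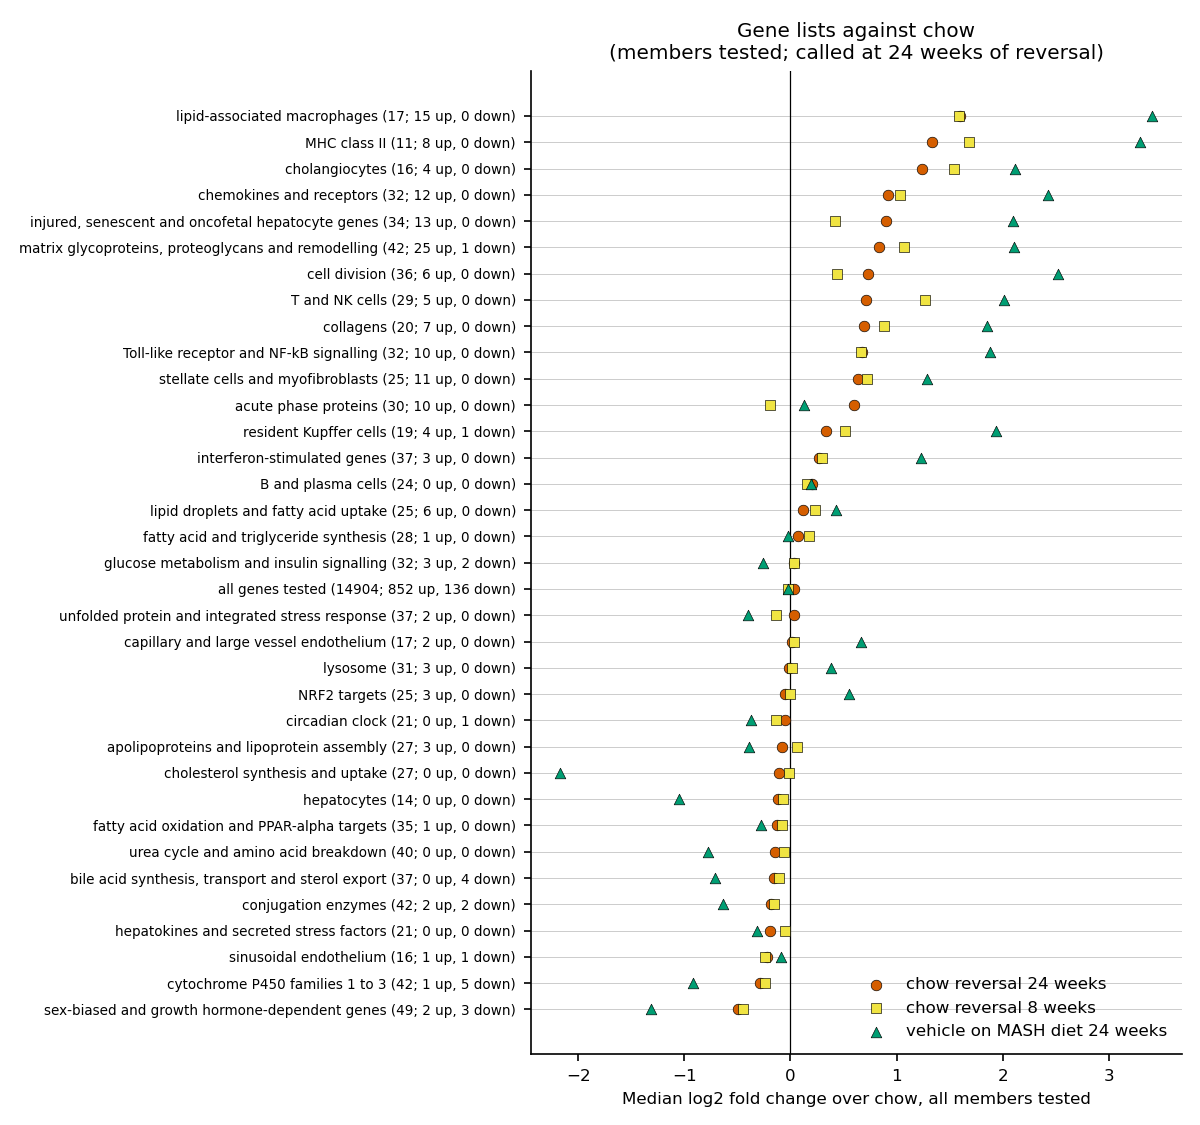
Median log2 fold change over chow of the tested members of each list with 10 or more of them, for chow reversal at 24 and 8 weeks and for vehicle on the diet at 24 weeks, with the number tested and the numbers called higher and lower at 24 weeks of reversal beside each name. Lipid-associated macrophage and MHC class II lists have the highest medians at 24 weeks of reversal (1.60 and 1.33), and cholesterol synthesis, at -2.17 in vehicle mice, lies at -0.11.

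The remaining lists had few or no genes called, to be read against the 5.72% of all genes called higher and 0.913% called lower. None of 40 urea cycle and amino acid genes passed the edgeR test (6 had an unadjusted p under 0.05, none by DESeq2), nor of 21 hepatokine genes (5 and none) or of 14 hepatocyte markers (4 and none). Of 42 conjugation enzymes 2 rose (4.76%) and 2 fell (4.76%), of 32 genes of glucose metabolism and insulin signaling 3 (9.38%) and 2 (6.25%), and the falls of both were not called without the 3 libraries. Of 37 unfolded protein and stress response genes 2 rose. Of 27 genes of apolipoproteins and lipoprotein assembly 3 were higher, of 25 NRF2 targets 3 (1 without the 3 libraries), of 5 adipocyte markers 2 (Cidec and Fabp4), and of 3 exocrine pancreas genes 2 were lower (Cela1 and Cela2a). Cela2a was not called without chow library 6 (adjusted p = 0.866, edgeR), and its reversal livers were at 0 to 0.804 CPM. The clock list had 1 fall of 21, Nr1d1, which was not called without the 3 libraries. Of 16 sinusoidal endothelial markers 1 rose and 1 fell, and of 6 erythroid markers none was called by edgeR or DESeq2 (1 had an unadjusted p under 0.05).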

How the data were processed

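Liver RNA was extracted from the left lateral lobe and sequenced from a directional library on an Illumina NextSeq, per the labels. The authors deposited estimated counts per gene (expected counts, 7.55% of them fractional) for 55487 genes in 77 libraries; the submitters' processing notes name STAR 2.7.3a, Salmon 1.2.0, FastQC 0.11.9, Picard, DESeq2 and GRCm38. The annotation release and strand setting are not given in the sources used here, so overlapping and antisense genes may share reads. Symbols came from GENCODE M21 (55227 genes matched). Genes without a symbol held 0.0155% of counts.

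Counts were rounded and tested with edgeR 4.0.16 (R 4.3.3; filterByExpr, TMM, glmQLFit and glmQLFTest, 1 fit of all 10 groups, Benjamini-Hochberg over 14904 genes). CPM values are TMM-scaled, and group values are given as lowest, median and highest. DESeq2 1.42.0, other scalings and filters, runs of neighboring library numbers as a block and leave-one-out fits were alternatives. Each replicate is 1 mouse. Counts were also simulated for this comparison (14651 genes). Of these, 23 of 50 genes changed 1.5-fold, 35 of 49 changed 2-fold, 47 of 49 changed 4-fold and 50 of 50 changed 8-fold were recovered. Of 14453 unchanged genes, 9 were called. The simulated counts held no library that stood apart as a whole, whereas the real ones did. Each gene was simulated from its mean level over all 77 libraries, not from its level in these 2 groups. The simulation therefore cannot give the recovery or the false calls of the real comparison.

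The comparison, its gene lists (39, holding 1027 genes) and the named genes were chosen with earlier results of these data known. Named genes were, among called genes that were neither predicted nor at an average log2 CPM of 0 or below, the 10 largest and the 10 smallest-p changes in each direction, up to 3 called genes of smallest p in each list, and Timp1, Timp2, Mmp13, Col1a1 and Acta2. Further list members were named after their values were seen. No set test was run. An item withheld for evaluation is not reported here.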

Additional observations from a re-analysis of the deposited data

Results flagged for a closer look

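For each named gene and group, the gap between the extreme library and its nearest neighbor was divided by the range of the group on the log2 scale, and a library was marked where this ratio passed Dixon's 95% critical value. Of 208 groups tested, 46 were marked. Chance marks about 1 in 20 among groups not chosen by their values. Most named genes were chosen by fold change or p in these same libraries, which can favor genes with 1 extreme library. The number of marks therefore cannot be read against chance. Chow library 5 accounted for 27 marks, reversal library 7 for 10 and reversal library 8 for 4.

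Chow library 5 was far above the other chow livers, with the ratio in parentheses, for Chil3 (0.91), Col1a1 (0.77), Col1a2 (0.7), Cyp2b9 (0.57), Cyp2c40 (0.8), Cyp2c69 (0.73), H2-Aa (0.7), H2-Ab1 (0.64), H2-Eb1 (0.71), Icam1 (0.6), Kcnt2 (0.86), Lgals3 (0.63), Lpl (0.59), Lrtm2 (0.62), Meg3 (0.77), Postn (0.94), Rian (0.72), Saa2 (0.67), Scd2 (0.61), Timp2 (0.7) and Top2a (0.62). It was far below them for Cela1 (0.58), Cidea (0.64), Cyp2u1 (0.73), Cyp7b1 (0.62), Epcam (0.87) and Ntrk2 (0.73). Its levels included 255 CPM of Meg3, 54 CPM of Postn, 147 CPM of Cyp2b9 and 43.3 CPM of H2-Aa, where the highest of the other chow livers were at 8.77, 5.45, 13.2 and 15.6 CPM.

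Reversal library 7 was far above the other reversal livers for Cd14 (0.56), Chil3 (0.65), Cxcl14 (0.78), Il18bp (0.65) and Scd2 (0.71), and far below them for Cidea (0.62), Cidec (0.53), Cyp39a1 (0.71), Cyp7b1 (0.59) and Ugt1a1 (0.56). Cidec was at 1.53 CPM in this liver, within the chow range. Reversal library 8 was far above for Fabp4 (0.53), Srxn1 (0.87) and Ugt2b37 (0.67) and far below for Wt1 (0.59). Srxn1 reached 562 CPM in it, where the reversal median was 47.2 CPM.

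Single marks fell on chow library 1 for Cxcl14 (low, 0.65), chow library 2 for Cyp39a1 (high, 0.58), chow library 6 for Cela2a (high, 0.69), chow library 7 for Susd4 (low, 0.74) and reversal library 6 for Pdgfra (high, 0.56).

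Of the named genes, 3 differed between 24 and 8 weeks of reversal: Cxcl14 (log2 difference 2.72, adjusted p = 0.0136), Ugt2b37 (3.25, adjusted p = 0.0136) and Steap4 (1.36, adjusted p = 0.0452), all by edgeR over all genes tested. Each was higher at 24 weeks, where Cxcl14 was at 132 CPM in reversal library 7, Ugt2b37 at 32.6 CPM in library 8 and Steap4 at 486 and 823 CPM in libraries 7 and 8.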

How the results depend on the processing

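The counts of 852 genes higher and 136 lower moved with the libraries in the fit. Leaving out 1 library at a time gave 396 to 1185 higher and 73 to 193 lower; the lowest counts of both came without reversal library 7, and 86 and 82 were lower without chow libraries 1 and 7. Library totals alone gave 1331 and 56. With only the 2 groups in the fit, where 12887 genes passed the filter, the counts were 115 and 14. Leaving out the 3 libraries that stood apart, an alternative chosen after seeing the data, gave 695 and 46. RLE size factors (894 and 117), DESeq2 (957 and 146), no filter (701 and 100) and the library set as a block (711 and 163) stayed within 1.5 times.

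Among named genes, log2 fold changes turned positive without chow library 5 for Chil3 (range with 1 library left out -5.35 to 3.02), Cyp2b9 (-2.31 to 0.06), Cyp2c40 (-2.81 to 0.27), Cyp2c69 (-3.98 to 0.90) and Kcnt2 (-3.30 to 0.77). They were also positive without the 3 libraries for Chil3 (1.35), Cyp2b9 (0.35), Cyp2c40 (0.40), Cyp2c69 (1.00) and Kcnt2 (0.30), and with DESeq2 for Cyp2c69 (1.01) and Kcnt2 (0.77). The DESeq2 reversals' cause was not tested. Over the other alternatives and named genes, leave-one-out fits aside, 596 results kept direction and side of the threshold and 113 lost the call; with 1 library left out these numbers were 1436 and 119. The 2-group fit called 35 of the named genes and did not test all of them. No paired analysis was possible because replicate numbers were given in accession order and each animal number is used once. On the simulated counts, changes of 1.5-fold (23 of 50) and of 2-fold (35 of 49) were recovered in part. An uncalled gene can therefore still differ by 2-fold. Recovery among libraries that stand apart, or at the gene levels of these 2 groups, was not tested.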

Other observations

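Some of the largest rises were of genes listed in no group above. A4gnt, which adds N-acetylglucosamine to gastric-type mucins, was at 0 to 0.0746 CPM in chow and at 0.0589 to 1.95 CPM in reversal livers, 7 of 8 of which were above the highest chow liver (log2 fold change 4.15 ± 1.02; adjusted p = 0.00247, edgeR). Without the 3 libraries it was 4.79. Lrtm2, a leucine-rich repeat membrane protein, had medians of 0.0518 and 1.15 CPM and maxima of 0.984 CPM in chow library 5 and 14.2 CPM in reversal library 7 (4.05 ± 0.75; adjusted p = 0.000134), and was called without the 3 libraries (4.95). Both were low in level, so few reads lie behind each value. Shc2, a signaling adaptor, was at 14.4 CPM in reversal library 7 and at most 1.13 CPM in the others (3.87 ± 0.85; adjusted p = 0.00134), and was not called without the 3 libraries (1.74; adjusted p = 0.374).

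Atf3, a stress-induced transcription factor, rose from a median of 0.602 to 2.22 CPM (1.93 ± 0.37; adjusted p = 0.000205, edgeR) and was called without the 3 libraries (1.71; adjusted p = 0.00257). Lyve1, the hyaluronan receptor of sinusoidal and lymphatic endothelium, had medians of 2.04 and 5.07 CPM, and 5 of 8 reversal livers were above the highest chow liver (1.22 ± 0.27; adjusted p = 0.00208). Its adjusted p without the 3 libraries was 0.0727. Cyp17a1, a steroid hydroxylase, had medians of 13.2 and 26.3 CPM (1.19 ± 0.37; adjusted p = 0.0328) and was called in 9 of the 15 fits that left out 1 library.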
